A study of Mus musculus with 12 samples.

Results

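The comparison described here is that of a high-fat diet (HFD) with a control diet (CD) in the gonadal white adipose tissue (GWAT) of wild-type (WT) mice. It was chosen by its labels and not by any measured value, and it holds 5 of the 12 bulk RNA-seq libraries of the study, namely WT CD replicates 1 and 2 and WT HFD replicates 1 to 3. The remaining CD library, WT CD replicate 3, is given only as a check beside the other values. WT mice had the genotype Hoip fl/fl AdipoQ.Cre-, so that both the CD and the HFD animals carried floxed alleles of Hoip (gene Rnf31) and no Cre. They were littermates of the HoipA-KO mice (Hoip fl/fl AdipoQ.Cre+), in which Cre under the adiponectin promoter deletes Hoip in mature adipocytes. The study used male mice, which went on the diet at 6 weeks of age with 14% fat in the CD or 60% fat in the HFD and were killed after 16 weeks, at 22 to 24 weeks of age. The fat content of the CD and the starting age are those of the labels, from which the methods differ slightly. Each library holds polyadenylated RNA from the fat of 3 mice pooled before extraction. A replicate is therefore a pool, and every p-value below measures the spread between pools and not between animals. The 6 HoipA-KO libraries enter through the filter, the scaling and the estimate of the spread, which all groups share, and through the diet effect in that genotype, which is given only beside that in WT.

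White adipose tissue stores triglycerides in adipocytes, and it also holds adipocyte progenitors, blood and lymph vessels, mesothelium and resident leukocytes. On a lasting surplus of dietary fat the gonadal depot expands, adipocytes enlarge and some die, and macrophages gather around the remains of dead adipocytes in what are called crown-like structures. These macrophages take up lipid and break it down in lysosomes, and they are known for a set of genes that includes Trem2, Gpnmb, Itgax and Cd9, while progenitors and fibroblasts lay down collagen. In bulk RNA, more cells of a type and more RNA per cell cannot be told apart.

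The 5 libraries held between 30513446 counts (HFD pool 1) and 54874218 counts (HFD pool 2). The CD pools held 47277646 and 45692037 counts and HFD pool 3 held 48085867. Levels are given as normalized CPM, the counts of a gene scaled to a common library size, in which 3 counts, taken as the floor, stand for 0.0564 to 0.0983 CPM. The labelled tissue was borne out by adipocyte markers, since Fabp4, a carrier of fatty acids in adipocytes, was at 21515 and 9405 CPM in the CD pools and 12712, 14319 and 10618 CPM in the HFD pools. The adipokine Adipoq was at 3452 and 1789.7 CPM in the CD pools and 2459.7, 2224 and 1658 CPM in the HFD pools. Rnf31 was measured at 20.2 and 20.6 CPM in the CD pools and 18.3, 17.8 and 19.7 CPM in the HFD pools, a log2 fold change of -0.13 ± 0.14 (SE) that did not pass the test (adjusted p = 0.539 by the quasi-likelihood test of edgeR, adjusted after Benjamini and Hochberg over all genes tested). The floxed gene was thus present in all 5 pools at levels that differed by less than the test could tell, and with WT CD replicate 3 (12.7 CPM) added the log2 fold change turned to 0.054.

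The CD pools were less alike than the HFD pools. Across the 18427 genes tested, Pearson's r of log2 levels was 0.904 between the 2 CD pools and 0.980 to 0.992 between the HFD pools, as a description across genes, which are not independent replicates. Of these genes, 1293 lay more than 8-fold apart between the CD pools, 1254 of them higher in pool 2, and they took 0.153% of the counts of CD pool 1, 9.03% of CD pool 2 and 0.282% to 0.326% of the HFD pools. They were flagged as RNA that may come from another tissue, and the epididymal genes among them were near the floor in CD pool 1: Crisp1, a secreted protein of the epididymis, was at 0.166 and 12261 CPM in the CD pools and 0.0983, 0.865 and 0.0618 CPM in the HFD pools. Adam7, an epididymal membrane protein, was at 0.214 and 2308 and 1.51, 0.0941 and 0 CPM. Of the 8 genes of a list of epithelial markers 7 were flagged, among them the keratins Krt8 (3.04 and 252 CPM in the CD pools, 6.72, 6.66 and 1.85 CPM in the HFD pools) and Krt18 (2.11 and 239 and 4.88, 4.57 and 1.28 CPM).

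The flag did not catch all such RNA. All 7 testis and sperm genes tested were called lower on HFD, of which 4 were flagged, and the protamines Prm1 and Prm2, which pack sperm DNA, were above the HFD pools in both CD pools. Prm1 was at 4.42 and 28.1 CPM in the CD pools and 0.360, 0.339 and 0 CPM in the HFD pools. Prm2 was at 5.53 and 156 and 1.28, 0.734 and 0.0412 CPM, and the sperm lactate dehydrogenase Ldhc at 0.831 and 10.4 and 0.0655, 0.132 and 0 CPM. The most of these transcripts were in WT CD replicate 3, with 3095 CPM of Prm2, 1699 CPM of Ldhc and 1256 CPM of Prm1, and 6.34% of its counts lay in the flagged genes. The part of such RNA in genes called lower on HFD was not tested, and none of these 7 genes was called without CD pool 2, while 3 were called without HFD pool 1 and 2 without HFD pool 2 or HFD pool 3.

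**Figure D1:**
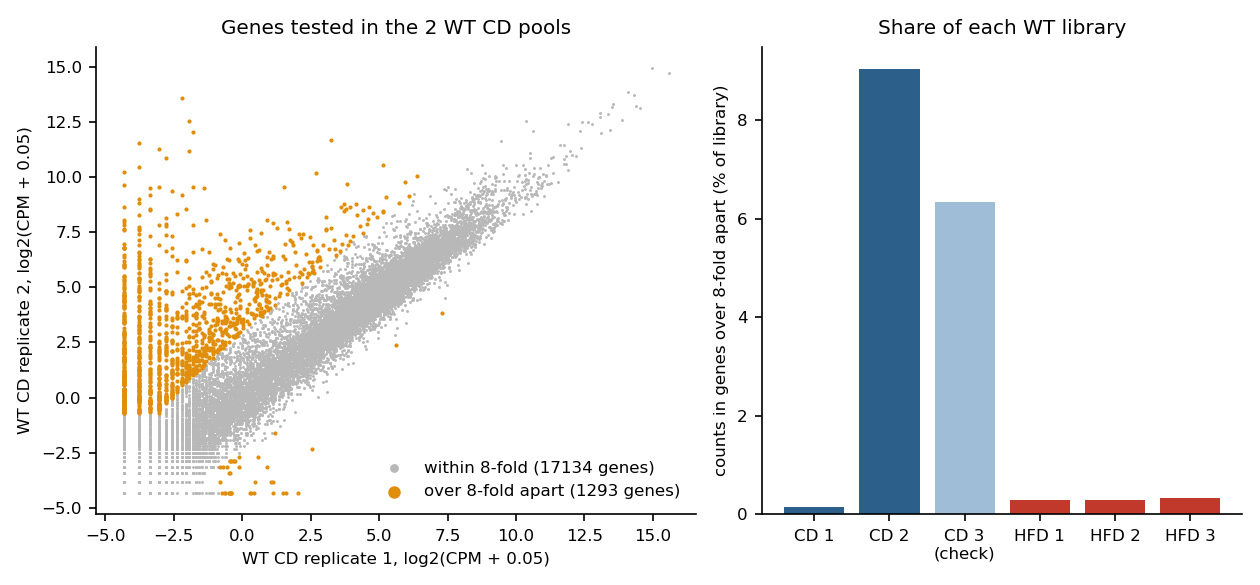
Left, log2(CPM + 0.05) of each tested gene in WT CD replicate 1 (x axis) and replicate 2 (y axis), with genes over 8-fold apart in orange. Right, the percentage of each WT library's counts in these 1293 genes, which is 9.03% in CD 2 and 6.34% in CD 3 (the check library, light) and below 0.33% in CD 1 and the HFD pools.

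On HFD, 1723 genes were higher and 1008 were lower at an adjusted p below 0.05 in edgeR, or 14.8% of the 18427 genes tested, 9.35% higher and 5.47% lower. The median log2 fold change of all genes tested was 0.00. With so few pools, groups that do not overlap are common. All HFD pools lay above both CD pools for 4539 genes (24.6% of those tested), called or not, and below both for 3315 (18%). Of the 1723 genes called higher 1722 lay above, and of the 1008 called lower 830 lay below. For a gene called higher, groups that do not overlap therefore add nothing to the call. None of the flagged genes was called higher and 303 were called lower, which leaves 705 lower genes that were not flagged. The third CD pool, WT CD replicate 3, was not used for these calls and lay below all 3 HFD pools for 1351 of the 1723 higher genes. It lay above all 3 HFD pools for 402 of the 705 lower genes that were not flagged. A smaller share of the falls than of the rises thus showed the same order in the third CD pool. This check may not weigh the 2 directions alike, since that pool was the lowest WT pool in several lists. Its mean of log2(CPM + 1) was 9.60 against 9.93 to 11.2 for adipocyte markers and 5.45 against 6.14 to 6.94 for endothelial markers. Cell cycle genes went the other way (4.68 against 1.83 to 4.23). The part of this in the 2 shares was not tested. With library size in place of TMM the split was 2108 higher and 677 lower (75.7% higher against 63.1%), and with DESeq2 it was 2396 and 2155 (52.6% higher). Leaving out CD pool 1 gave 2913 higher and 3072 lower genes, without CD pool 2 there were 750 and 303, without HFD pool 2 982 and 155, and without HFD pool 3 864 and 181. The lower calls also moved to 450 without HFD pool 1 and to 495 without HoipA-KO CD replicate 1. A fit on the 5 WT libraries alone called 0 genes with edgeR (4666 at an unadjusted p below 0.05) and 1997 higher and 1636 lower with DESeq2, the latter added after the data were seen.

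**Figure D2:**
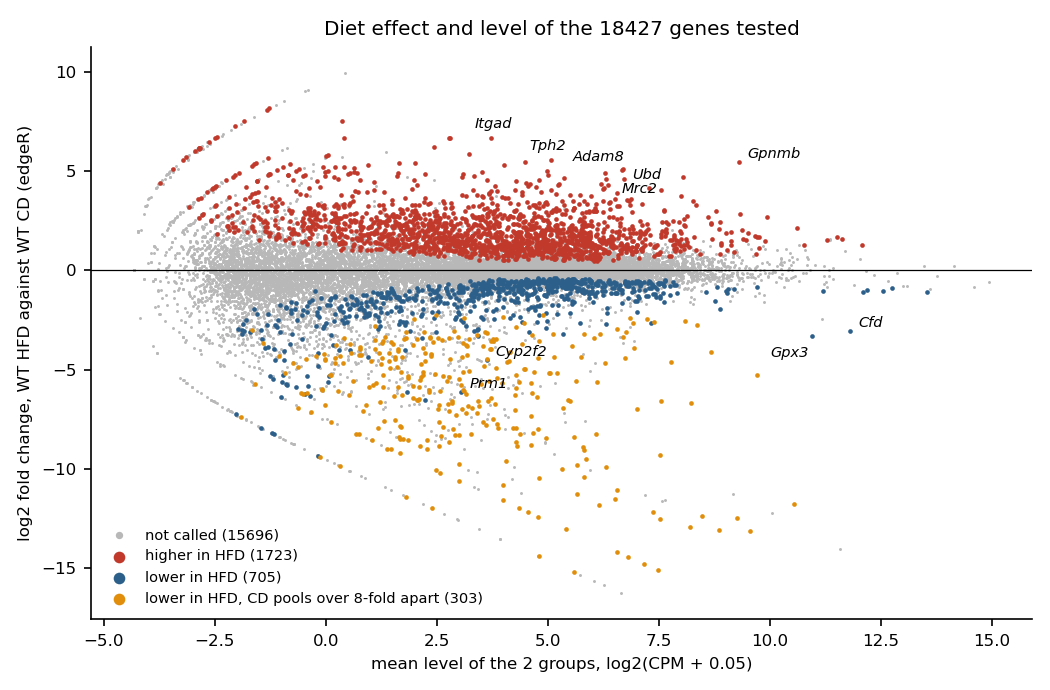
Log2 fold change of WT HFD against WT CD (y axis) by the mean level of the 2 groups as log2(CPM + 0.05) (x axis), 1 point per gene. Genes called higher (1723, red) and lower (705, blue) are set apart from the 303 genes called lower whose CD pools differ over 8-fold (orange), which hold most of the falls below -5 on the log2 scale at higher levels.

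Mrc2, a collagen receptor of fibroblasts and macrophages that takes collagen fragments into the cell, had the smallest p of all genes and was at 17.8 and 10.3 CPM in the CD pools and 168, 173 and 165 CPM in the HFD pools. This is a log2 fold change of 3.58 ± 0.24 (SE) (adjusted p = 0.000822, edgeR), and WT CD replicate 3 had 12.3 CPM. Dock8, which activates the small GTPase Cdc42 in leukocytes, followed the same pattern at 16.1 and 12.8 against 167, 133 and 162 CPM (log2 fold change 3.41). So did the ubiquitin-like gene Ubd, which is induced by inflammatory cytokines, at 5.65 and 6.34 against 135, 231 and 224 CPM (log2 fold change 5.03). In the third CD pool these 2 genes had 21.2 and 2.91 CPM. Among the other genes of small p that pool did not always lie with the CD pools. Col16a1, a collagen of fibril surfaces, was at 10.998 and 13.2 against 81.4, 71.7 and 80.6 CPM with 66.4 CPM in WT CD replicate 3, and the kinesin Kif21b at 5.15 and 4.22 against 38.9, 21.7 and 26.6 CPM with 41.9 CPM there, above all HFD pools. These 5 genes were chosen for their small p-values after these had been seen.

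Among protein-coding genes that were not flagged, had at least 10 CPM in the higher group and did not overlap between the groups, the 10 with the largest rise were Myh15, Itgad, Tm4sf19, Hmga2, Trdn, Tph2, Il1rn, Gpnmb, Dhrs9 and Adam8, with log2 fold changes from 5.08 to 6.67. Il1rn, the secreted antagonist of the interleukin-1 receptor, was at 0.499 and 1.46 CPM in the CD pools and 27.6, 42.5 and 60.7 CPM in the HFD pools, a log2 fold change of 5.46 ± 0.78 (SE). Itgad, an integrin subunit of macrophages, was at 0.309 and 0.211 against 5.64, 24.8 and 48.2 CPM, with 7.25 CPM in WT CD replicate 3, within the HFD range. Adam8, a membrane metalloprotease of leukocytes, was at 4.89 and 7.03 against 77.7, 168 and 359 CPM. By the rule that chose them, all HFD pools exceeded both CD pools for each of these genes. Tph2, an enzyme of serotonin synthesis, differed in its pattern, since its highest value was in HFD pool 2 (25.4, 117 and 53.4 CPM against 1.14 and 1.65 CPM on CD). Trdn, a protein of the sarcoplasmic reticulum of muscle, was highest in HFD pool 1 (30.5, 17.7 and 7.05 CPM against 0.451 and 0.190 CPM). For Myh15, a myosin heavy chain, WT CD replicate 3 had 11.8 CPM and so lay within the HFD pools (2.39, 12.6 and 26.0 CPM), far above the other CD pools (0.0475 and 0.211 CPM). The chromatin protein Hmga2 was at 0.0238 and 0.253 against 2.06, 10.3 and 19.2 CPM and the membrane protein Tm4sf19 at 0.0475 and 0.211 against 4.19, 11.4 and 24.9 CPM. The dehydrogenase Dhrs9, which acts on retinoids and steroids, was at 0.736 and 0.866 against 9.08, 30.4 and 55.2 CPM. In CD pool 1 Myh15, Tm4sf19 and Hmga2 (0.0475 and 0.211 and 0.0238 and 0.253 CPM for the last 2) lay under the floor of 3 counts, 0.0713 CPM in that pool, so the size of their log2 fold changes rests on very few counts.

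The 10 largest falls by the same rule were those of Prm1, Cyp2f2, Gpx3, Acsm3, Slc1a1, Nt5e, Cfd, Spa17, Slc25a29 and Slc2a3, with log2 fold changes from -6.14 to -2.88. Prm1, described above, and Spa17 are sperm genes, Spa17 at 4.56 and 31.2 against 2.79, 2.35 and 1.40 CPM and 374 CPM in WT CD replicate 3. Cfd (adipsin, the complement factor D that adipocytes secrete) fell from 8693 and 4149 CPM to 1102, 863 and 348 CPM, by 3.06 ± 0.75 (SE) on the log2 scale (adjusted p = 0.0277, edgeR), and WT CD replicate 3 had 2333 CPM, above all HFD pools. Cyp2f2, a cytochrome P450, was at 22.9 and 24.6 against 1.25, 1.60 and 0.268 CPM with 11.2 CPM in the third CD pool. The medium-chain acyl-CoA synthetase Acsm3 was at 22.7 and 16.0 against 3.28, 2.14 and 0.453 CPM with 9.23 CPM there. For these 3 genes all CD pools lay above all HFD pools.

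In other falls of this group the 2 CD pools were far apart. Gpx3, the glutathione peroxidase of plasma, was at 1318 and 5883 CPM in the CD pools and 363, 353 and 369 CPM in the HFD pools, and WT CD replicate 3 had only 379.7 CPM, close to the HFD level. The glutamate transporter Slc1a1 was at 16.4 and 131 against 12.2, 5.04 and 6.41 CPM with 8.57 CPM in the third CD pool. Slc25a29, a mitochondrial carrier of basic amino acids, was at 10.2 and 27.6 against 3.74, 1.94 and 1.59 CPM with 3.97 CPM. For both genes that value lay near or within the HFD range. Nt5e (CD73, which makes adenosine from AMP) was at 10.2 and 74.6 against 7.47, 6.13 and 1.22 CPM, and Slc2a3, a glucose transporter, at 34.1 and 75.3 against 10.4, 6.30 and 5.63 CPM, with 22.9 and 633 CPM in WT CD replicate 3. Slc2a3, like Prm1 and Spa17, was thus highest in that library. The part of RNA from other tissues in these falls was not tested.

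Most macrophage markers were called higher on HFD. Of 10 general macrophage markers 8 were called higher and 0 lower, the median log2 fold change being 2.83. Of 13 markers of lipid-associated macrophages 9 were higher and 0 lower, with a median of 3.09. Cd68, a glycoprotein of phagocyte lysosomes, was at 23.5 and 20.3 CPM in the CD pools and 145, 328 and 593 CPM in the HFD pools, a log2 fold change of 4.02 ± 0.59 (SE) (adjusted p = 0.00617, edgeR). Adgre1, which encodes the macrophage antigen F4/80, was at 13.3 and 19.6 against 101, 259.8 and 518 CPM. All HFD pools lay above both CD pools for these genes, and pool 3 was highest and pool 1 lowest. Csf1r, the receptor for the main growth factor of macrophages, rose by 2.43 ± 0.41 (SE) on the log2 scale (73.3 and 53.2 against 190.0, 331 and 502 CPM). Tyrobp, the adaptor through which Trem2 signals, was at 23.9 and 18.4 against 91.6, 190.4 and 346 CPM.

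Among the markers of lipid-associated macrophages, Trem2, a receptor for lipids and apoptotic cells, was at 8.43 and 7.43 CPM in the CD pools and 57.6, 145 and 267 CPM in the HFD pools, a log2 fold change of 4.30 ± 0.61 (SE). Gpnmb, a transmembrane glycoprotein of phagocytes loaded with lipid, was at 25.6 and 31.7 CPM in the CD pools and 347, 984 and 2381 CPM in the HFD pools, a log2 fold change of 5.43 ± 0.90 (SE). Itgax, which encodes the integrin CD11c, was at 6.51 and 6.21 against 61.6, 134 and 258 CPM. Atp6v0d2, a subunit of the lysosomal proton pump, was at 4.68 and 12.2 against 66.1, 189.7 and 353 CPM. In WT CD replicate 3 these 4 genes were lower than in the other CD pools, at 3.71, 13.4, 4.14 and 2.08 CPM. The mean of log2(CPM + 1) over this list was 4.75 and 4.89 in the CD pools, 3.89 in WT CD replicate 3 and 6.68, 7.63 and 8.34 in the HFD pools. Without CD pool 2, 5 genes of each of these 2 lists were called higher.

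Of 12 markers of resident perivascular macrophages 4 were higher and 0 lower, with a median log2 fold change of 0.77. Folr2, a folate receptor, was at 23.6 and 16.7 CPM in the CD pools and 55.3, 97.7 and 118 CPM in the HFD pools. The mannose receptor Mrc1 was at 70.2 and 46.3 against 145, 209 and 285 CPM. Vsig4, a complement receptor, was higher too (0.831 and 1.63 against 6.85, 6.43 and 4.02 CPM), as was the lectin Clec10a (39.1 and 21.0 against 60.6, 91.0 and 106 CPM). The list had 1 higher gene without CD pool 2 and 2 without HFD pool 2. Of 5 monocyte markers 2 were higher, the chemokine receptor Ccr2 (14.3 and 10.4 against 48.0, 46.8 and 50.9 CPM) and the proteoglycan Vcan (15.6 and 9.80 against 22.0, 39.1 and 39.5 CPM), and 1 was higher without CD pool 2, HFD pool 2 or HFD pool 3. Flt3, the growth factor receptor of dendritic cells, was the 1 called gene of 8 markers of those cells, at 0.689 and 0.697 against 3.41, 2.28 and 4.14 CPM, with 3.62 CPM in WT CD replicate 3. Csf3r was the 1 called gene of 5 neutrophil markers tested (1.64 and 1.14 against 4.78, 4.72 and 5.98 CPM). The dendritic cell calls were 3 without CD pool 1 and 2 without HoipA-KO CD replicate 2 or HoipA-KO HFD replicate 3. The mean of log2(CPM + 1) over the dendritic cell list was 2.33 in WT CD replicate 3 and 2.29, 2.12 and 2.31 in the HFD pools.

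**Figure D3:**
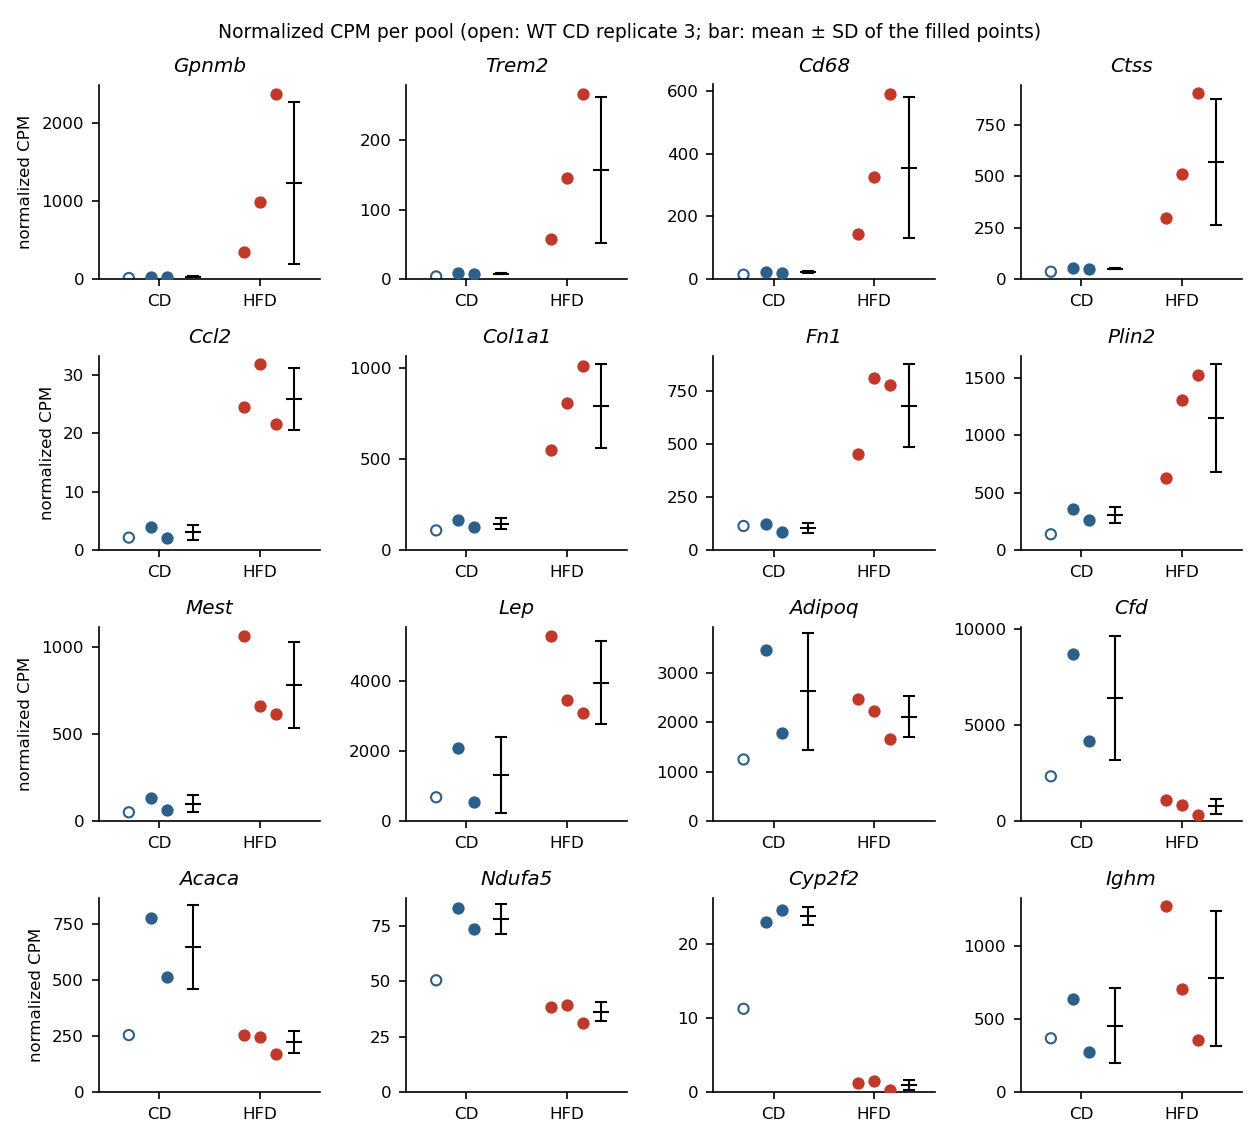
Normalized CPM (y axis, linear, from 0) of 16 genes in each pool on CD (blue) and HFD (red), with WT CD replicate 3 as open circles and the mean ± SD of the filled points beside each group. Macrophage, matrix and chemokine genes lie higher in all 3 HFD pools, Cfd, Ndufa5 and Cyp2f2 lie lower, and Adipoq and Ighm overlap between the diets.

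Genes of the lysosome, the organelle in which macrophages break down what they take up, were higher in part. Of 35 such genes 14 were called higher and 0 lower, and the median log2 fold change was 0.87. Ctss, a cathepsin of antigen-presenting cells, was at 52.0 and 49.3 CPM in the CD pools and 296, 509 and 902 CPM in the HFD pools, a log2 fold change of 3.49 ± 0.52 (SE), the largest of the 14. Atp6v0a1, another subunit of the proton pump, was at 144 and 127 against 317, 355 and 414 CPM. The cathepsin Ctsz was at 170.4 and 109 against 294, 394 and 547 CPM, and the alpha-galactosidase Gla at 9.29 and 9.67 against 21.6, 36.4 and 61.4 CPM. These were higher in every HFD pool than in either CD pool. The membrane protein Lamp1, a common marker of lysosomes, overlapped between the diets (668 and 901 against 783, 1030.5 and 1268 CPM, log2 fold change 0.39 ± 0.30 (SE)). Without CD pool 1 there were 13 higher and 4 lower genes. The list had 3 higher genes without CD pool 2, 5 without HFD pool 2, 2 without HFD pool 3 and 9 without HoipA-KO CD replicate 1, HoipA-KO CD replicate 3 or HoipA-KO HFD replicate 3.

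The promoters of these genes were searched for the E-box CACGTG, the core of the element that transcription factors of the TFEB family are known to bind at lysosome genes. RefSeq promoters (GRCm38.p6, 250 bases before the start) were at hand for 26 of the 35 genes, and 8 of them (30.8%) held the motif on either strand, against 6.86% of 27025 genes. Of the 12 higher genes with a promoter 4 held it, namely Ctsa, Ctsd, Ctsl and Gla. The promoter of Lamp1, which was not called, held it as well, 4 times. The windows are shown with the motif in capitals so that the bases around it can be compared, 1 window per gene, each on the strand of its gene. A match is a description of these letters and no evidence of binding.
Ctsa, chr2:164833743-164833772, plus strand: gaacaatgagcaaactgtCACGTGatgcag
Ctsd, chr7:142387908-142387937, minus strand: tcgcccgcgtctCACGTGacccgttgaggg
Ctsl, chr13:64370739-64370768, minus strand: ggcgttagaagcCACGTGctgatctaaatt
Gla, chrX:134601215-134601244, minus strand: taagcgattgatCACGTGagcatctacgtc
Lamp1, chr8:13159088-13159117, plus strand: agggcaagatatCACGTGgtccagcgccca

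Of the genes in these windows, Ctsd, the main aspartic protease of lysosomes, was at 1416 and 1164 CPM in the CD pools and 2336, 3554 and 5293 CPM in the HFD pools, a log2 fold change of 1.53 ± 0.41 (SE). Ctsa, a carboxypeptidase, rose by 1.54 and the cathepsin Ctsl by 1.47 on the log2 scale, with 142 and 79.9 against 196, 298 and 471 CPM and 606 and 396 against 1091, 1404 and 1679.6 CPM. Each was higher in all HFD pools.

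The macrophage lists were searched in the same way for GAGGAAG on either strand, a motif of the kind bound by PU.1, the ETS factor of myeloid cells. On the other strand it reads CTTCCTC. It was in 5 of the 10 promoters at hand of lipid-associated macrophage genes (50%) and in 2 of 6 of the general macrophage genes (33.3%), against 12% of 27025 genes. Of the genes called higher with a promoter, 3 of 7 and 2 of 4 held it. Cd63 and Spp1 of the first list, which were not called, held it as well. The windows of 4 called genes are shown with the motif in capitals, written on the strand of the gene.
Itgam, chr7:128062544-128062573, plus strand: tgttttctcccgGAGGAAGgctacagaggg
Trem2, chr17:48346348-48346377, plus strand: aagcctcctttcCTTCCTCcctccctcacg
Ctsk, chr3:95498965-95498994, plus strand: gtcagacattttGAGGAAGaatggagacaa
Mmp12, chr9:7344298-7344327, plus strand: ccacttcacccaCTTCCTCttccaagactc

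Itgam, which encodes the integrin CD11b, was at 12.7 and 12.1 CPM in the CD pools and 65.5, 126 and 228 CPM in the HFD pools. Ctsk, a cathepsin that cleaves collagen, was at 23.2 and 14.3 against 76.8, 164 and 289 CPM. Mmp12, the macrophage elastase, was at 24.9 and 15.1 against 199.8, 393 and 941 CPM, the widest spread among the HFD pools of these genes, and WT CD replicate 3 had 5.72 CPM.

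Of 12 genes of lipid uptake and cholesterol efflux 5 were higher and 0 lower (median 1.53; 8 higher without CD pool 1). The scavenger receptor Msr1, which takes up modified lipoproteins, was at 4.94 and 4.54 CPM in the CD pools and 24.3, 38.7 and 65.2 CPM in the HFD pools. Pltp, a phospholipid transfer protein, was at 145 and 118 against 465, 679 and 894 CPM. Olr1, a receptor for oxidized lipoproteins, was scarce and rose by 3.93 ± 0.57 (SE) on the log2 scale (0.095 and 0.296 against 1.57, 3.86 and 3.67 CPM). Stab1, another scavenger receptor, was at 87.2 and 59.6 against 149, 213 and 288 CPM, and the efflux pump Abcg1 had a log2 fold change of 1.51.

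Innate immune genes were higher on HFD in several lists. Of 11 genes of Fc gamma receptors and the NADPH oxidase 10 were higher and 0 lower (median 2.57; 6 higher without CD pool 2), and of 13 complement genes 9 were higher and 0 lower (median 1.67; 4 higher without CD pool 2). Ncf4, a cytosolic subunit of the oxidase, was at 3.04 and 3.02 against 12.2, 19.5 and 28.1 CPM. Fcer1g, the signaling chain that Fc receptors share, was at 23.6 and 18.9 against 62.6, 100.4 and 151 CPM. Rac2, the GTPase of the oxidase in leukocytes, was at 9.22 and 11.1 against 33.5, 40.9 and 62.1 CPM. The HFD pools lay above the CD pools in each case. The complement genes included C3, the central component, at 479.5 and 344 CPM in the CD pools and 1135, 1357 and 1438 CPM in the HFD pools, a log2 fold change of 1.67 ± 0.27 (SE). The receptor of its fragment C3a, C3ar1, was at 11.9 and 11.7 against 72.9, 158 and 301 CPM. C1qb, a chain of the first component that macrophages make, was at 89.0 and 65.8 against 221, 413 and 630.4 CPM, and Cfp (properdin) at 24.3 and 15.9 against 42.4, 61.8 and 66.4 CPM. With Cfd, described above, the alternative pathway thus held genes that moved in both directions.

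Of 8 genes of MHC class II presentation 5 were higher and 0 lower, with a median of 1.52. Ciita, the master regulator of these genes, was at 3.42 and 4.84 CPM in the CD pools and 11.3, 15.8 and 29.2 CPM in the HFD pools. H2-DMb1, a chain of the molecule that loads peptides, was at 16.7 and 15.3 against 65.0, 92.2 and 108 CPM. Its partner H2-DMa rose by 1.37 and the invariant chain Cd74 by 1.55 on the log2 scale. The list had 3 higher genes without CD pool 1 or HFD pool 2, 2 without CD pool 2 or HFD pool 3, and 8 with WT CD replicate 3 added.

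Of 18 chemokines 8 were higher and 0 lower (median 1.56), and of 9 chemokine receptors 5 were higher and 0 lower (median 1.58; 3 higher without HFD pool 1 or HFD pool 3). Ccl2, which draws monocytes through Ccr2, was at 3.94 and 2.13 CPM in the CD pools and 24.5, 31.8 and 21.5 CPM in the HFD pools, a log2 fold change of 3.10 ± 0.41 (SE). It was highest in HFD pool 2, while the means of the general and lipid-associated macrophage lists were highest in HFD pool 3. Ccl9, a ligand of Ccr1, was at 49.6 and 35.1 against 188, 353 and 514 CPM. Cxcl16, which is also a scavenger receptor, was at 10.4 and 12.2 against 21.6, 32.0 and 33.8 CPM, and the scarce Ccl3, a chemokine of macrophages, at 0.190 and 0.169 against 1.74, 3.54 and 6.62 CPM. Among the receptors, Ccr3, the eotaxin receptor, was at 0.190 and 0.169 against 1.05, 2.54 and 5.09 CPM, and Cxcr3, a receptor of T cells, at 1.02 and 0.950 against 2.95, 2.30 and 2.89 CPM. For all of these the HFD pools did not overlap the CD pools.

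Of 17 cytokine and acute-phase genes 6 were higher and 0 lower (median 1.23), namely Il1rn, Tnf, Tgfb1, Il10, Saa3 and Osm. Tnf, a cytokine whose signaling involves the linear ubiquitin chains that HOIP makes, was scarce at 0.166 and 0.380 CPM in the CD pools and 0.950, 1.05 and 1.55 CPM in the HFD pools, a log2 fold change of 2.10 ± 0.42 (SE). Tgfb1, which promotes fibrosis, was at 35.1 and 35.1 against 57.1, 76.2 and 115 CPM, and Il10, which restrains inflammation, at 0.261 and 0.232 against 0.393, 0.847 and 1.07 CPM. The HFD pools were higher throughout, although the Tnf and Il10 values rest on few counts. This list had 2 higher genes without CD pool 2 or HFD pool 2, 1 without HFD pool 3, and 3 without HoipA-KO CD replicate 1 or HoipA-KO CD replicate 3.

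In the NF-κB and TNF pathway 6 of 20 genes were higher and 0 lower (median 0.48; 2 higher without CD pool 2). Tnfrsf1b, the second TNF receptor, was at 19.9 and 16.2 CPM in the CD pools and 55.9, 87.6 and 141 CPM in the HFD pools. The NF-κB subunit Rel was at 4.70 and 4.16 against 11.5, 11.98 and 17.8 CPM. Nfkb2, a subunit of the noncanonical arm, was at 22.4 and 16.1 against 34.0, 46.0 and 43.0 CPM and the inhibitor Nfkbie at 4.30 and 3.72 against 8.29, 7.54 and 9.34 CPM. Of 7 genes of the linear ubiquitin machinery only Tnip1, which binds linear chains, was called (31.5 and 42.7 against 58.0, 58.9 and 64.8 CPM, log2 fold change 0.71 ± 0.15 (SE)), and it was not called without HFD pool 3 or HoipA-KO HFD replicate 3.

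Of 23 cell death genes 10 were higher and 0 lower, with a median of 0.88, and 6 were higher without CD pool 2 or HFD pool 3. Several belong to inflammasomes, which trigger pyroptosis. The protease Casp1 was at 10.2 and 7.67 CPM in the CD pools and 28.0, 43.2 and 53.1 CPM in the HFD pools, a log2 fold change of 2.21 ± 0.32 (SE). The DNA sensor Aim2 was at 2.30 and 1.65 against 6.13, 7.34 and 11.7 CPM. Casp4, the receptor for intracellular lipopolysaccharide, was at 7.13 and 3.95 against 13.7, 15.0 and 14.1 CPM, and Gsdmd, the pore that these caspases open, had a log2 fold change of 1.27. The necroptosis kinase Ripk3 was at 4.35 and 4.82 against 9.47, 11.5 and 15.5 CPM and its activator Zbp1 rose by 1.57 on the log2 scale. The pro-apoptotic genes Pmaip1 and Bak1 were higher by 1.28 and 0.97, Pmaip1 with 4.16 CPM in WT CD replicate 3, within the HFD pools (4.26, 3.89 and 4.84 CPM). Both CD pools lay below all HFD pools for Casp1, Aim2, Casp4 and Ripk3.

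Genes of the extracellular matrix, which fibroblasts and progenitors lay down around adipocytes, were mostly called higher on HFD. Of 23 collagen and matrix genes 19 were higher and 0 lower, all 23 had a higher estimate on HFD, and the median log2 fold change was 1.93. Col1a1 and Col1a2, the chains of type I collagen, were at 167 and 126 CPM in the CD pools and 552, 811 and 1013 CPM in the HFD pools and at 306 and 215 against 798, 1053 and 1361 CPM. Fn1 (fibronectin) was at 122 and 86.7 CPM in the CD pools and 454, 809 and 774 CPM in the HFD pools, a log2 fold change of 2.703 ± 0.31 (SE) (adjusted p = 0.00512, edgeR). Col14a1, a collagen on the surface of fibrils, was at 12.5 and 20.8 against 76.9, 101 and 101 CPM. WT CD replicate 3 lay with the other CD pools for all 4, at 109, 221, 114 and 21.2 CPM. The 3 chains of type VI collagen, the collagen most tied to adipocytes, rose by 1.88 (Col6a1), 1.93 (Col6a2) and 2.31 (Col6a3) on the log2 scale. The cross-linking enzyme Lox rose by 1.99 and Postn (periostin) by 2.58. The number of higher genes was 7 without CD pool 2, 12 without HFD pool 2 and 9 without HFD pool 3.

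Enzymes that remodel this matrix and their inhibitors were higher as well, in 6 of 13 genes with 0 lower (median 1.58). Timp1, an inhibitor of metalloproteases, was at 1.496 and 2.32 CPM in the CD pools and 13.2, 29.8 and 29.7 CPM in the HFD pools, a log2 fold change of 3.66 ± 0.44 (SE). Timp2 was at 242 and 172 against 458, 631 and 763 CPM, the gelatinase Mmp2 at 52.4 and 27.4 against 88.3, 173 and 246 CPM and the membrane collagenase Mmp14 at 35.3 and 37.0 against 68.4, 116 and 161 CPM. The groups did not overlap. Of 12 markers of adipose progenitors 5 were higher and 0 lower (median 0.96; 2 higher without CD pool 2 and 3 without HFD pool 2). Lum (lumican, a proteoglycan of fibrils) was at 25.9 and 24.7 CPM in the CD pools and 130.5, 287 and 339 CPM in the HFD pools. Pdgfra, the growth factor receptor that marks progenitors, was at 34.8 and 25.5 against 54.6, 73.7 and 112 CPM, and Icam1 at 16.8 and 14.3 against 29.6, 34.0 and 37.9 CPM. Cd55, a regulator of complement on progenitors, was higher too (36.3 and 26.2 against 58.0, 61.7 and 51.4 CPM). Of 11 TGF-beta and myofibroblast genes 3 were higher and 0 lower (median 1.04), namely Tgfbi (48.4 and 36.3 against 92.5, 100.3 and 99.0 CPM), Tgfbr2 (116 and 64.9 against 157, 185 and 218 CPM) and Tgfb1. That count was 5 without CD pool 1, 0 without CD pool 2 and 1 without HFD pool 2 or HFD pool 3.

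Cell cycle genes were higher in the 3 HFD pools than in the 2 CD pools, and in the mean of the list they were as high in the third CD pool. Of 16 genes 14 were called higher and 0 lower, with a median of 2.53. The proliferation marker Mki67 was at 7.96 and 8.15 CPM in the CD pools and 35.6, 60.3 and 73.2 CPM in the HFD pools. The mitotic kinase Cdk1 was at 2.87 and 2.47 against 11.04, 19.2 and 21.3 CPM and Aurkb at 1.52 and 1.44 against 6.03, 8.09 and 11.5 CPM. WT CD replicate 3 had 28.7 CPM of Mki67, 20.0 CPM of Cdk1 and 6.68 CPM of Aurkb. Mki67 was thus still below all HFD pools there. The mean of log2(CPM + 1) over the list in this library, 4.68, exceeded those of the HFD pools (3.18, 3.95 and 4.23) and of the other CD pools (1.83 and 2.03). With this library added, 2 of the 16 were higher and the median was 0.48. This library also held the most sperm and testis RNA, and the part of that in the cell cycle values was not tested. Regulators that halt the cycle were also called higher. Cdkn1a (p21) was at 62.0 and 50.1 CPM in the CD pools and 136, 134 and 159 CPM in the HFD pools, and the scarce Cdkn2a at 0.451 and 0.486 against 1.90, 1.99 and 2.12 CPM, with 39.1 and 2.65 CPM in WT CD replicate 3.

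**Figure D4:**
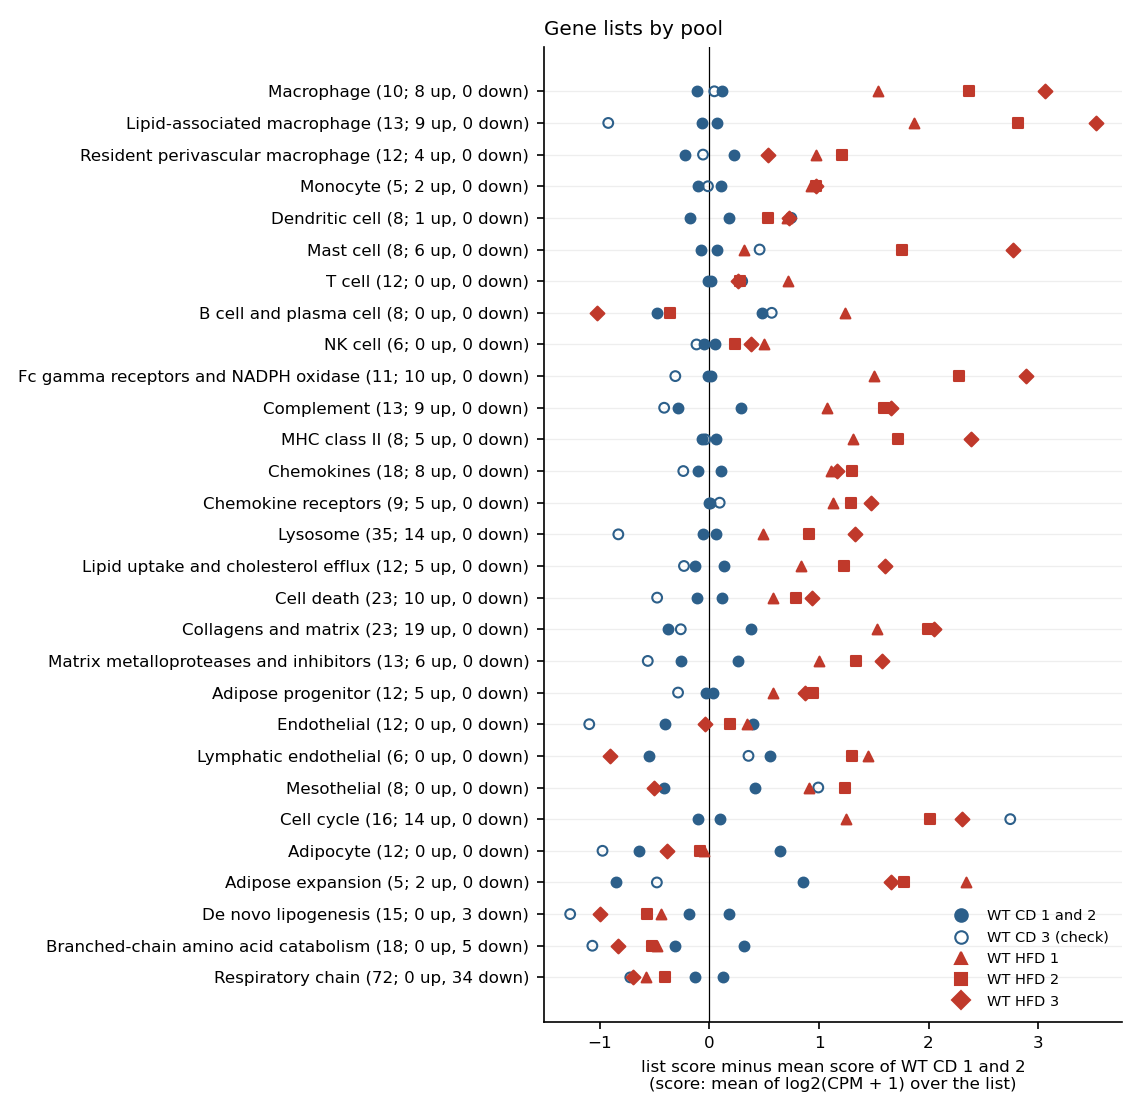
For 29 gene lists, the mean of log2(CPM + 1) over the list in each WT pool minus the mean of WT CD 1 and 2 (x axis), with the number of members tested and of members called higher (up) and lower (down) after each name. WT CD 3 (open) lies with the other CD pools for most macrophage and matrix lists. It lies beyond the HFD pools for the cell cycle and, narrowly, for dendritic cells. For lipogenesis, branched-chain amino acid catabolism and the respiratory chain it lies on the side of the HFD pools.

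Genes that define adipocytes did not pass the test. Of 12 adipocyte markers 0 were higher and 0 lower, the median log2 fold change being -0.32 and means of log2(CPM + 1) of 11.2 and 9.93 in the CD pools and 10.5, 10.5 and 10.2 in the HFD pools, between the 2 CD values. WT CD replicate 3 had a mean of 9.60, below all of these pools. The sign for Fabp4 and Adipoq turned when CD pool 1 was left out (0.43 and 0.25) or replaced by the third CD pool (0.76 and 0.50). Of 11 adipogenic transcription factors, 6 genes of caveolae and 10 genes of the IGF axis, 0 were called as well. The median log2 fold changes of these 3 lists were -0.39, 0.07 and 0.28. Without CD pool 1 each of the 3 lists had 3 higher genes and the adipocyte markers 1. Without CD pool 2, 3 adipogenic factors and 2 adipocyte markers were lower, and 2 adipogenic factors were lower without HoipA-KO CD replicate 2.

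Of 5 genes tied to adipose expansion 2 were higher and 0 lower, with a median of 1.76. Mest, an imprinted gene whose level follows the growth of adipocytes, was at 135 and 65.0 CPM in the CD pools and 1066, 660.1 and 618 CPM in the HFD pools, a log2 fold change of 2.97 ± 0.70 (SE), with 51.6 CPM in WT CD replicate 3. Bmp3 was at 35.4 and 11.8 against 92.3, 73.6 and 72.9 CPM. Lep (leptin), the hormone that signals fat mass, was at 2088 and 556 CPM in the CD pools and 5291, 3468 and 3073 CPM in the HFD pools with 685 CPM in WT CD replicate 3, a log2 fold change of 1.58 ± 0.55 (SE) that did not pass the test (adjusted p = 0.0818, edgeR). Lep is named after its values were seen, and its 2 CD pools differed widely. The list had 0 higher genes without CD pool 2, HFD pool 2 or HFD pool 3, 1 without HFD pool 1 or any single HoipA-KO CD library, 4 with WT CD replicate 3 added and 5 without CD pool 1. Of 12 adipokines Metrnl, a secreted protein of fat and macrophages, was the 1 higher gene (13.4 and 21.1 against 35.2, 64.6 and 92.1 CPM) and Cfd the 1 lower gene. Without CD pool 1 there were 4 higher and 0 lower adipokines, without HFD pool 3 there were 0 and 0, without HoipA-KO HFD replicate 2 there were 2 higher, and Cfd was not called without HFD pool 2.

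Genes of lipid synthesis were lower or not called. Of 15 genes of de novo lipogenesis 3 were lower and 0 higher, with a median of -0.60. Acaca, the carboxylase that makes malonyl-CoA, was at 777 and 513 CPM in the CD pools and 255, 247 and 169 CPM in the HFD pools, a log2 fold change of -1.53 ± 0.28 (SE). Acly, which supplies acetyl-CoA from citrate, was at 541 and 599 against 333, 349.7 and 288 CPM, and the elongase Elovl6 at 71.9 and 181 against 33.8, 41.7 and 27.7 CPM. CD pools 1 and 2 lay above the HFD pools, while WT CD replicate 3 lay at or below their upper end: it had 255 CPM of Acaca, 197 CPM of Acly and 24.6 CPM of Elovl6, and with it added 0 of the 15 were called. Without HoipA-KO CD replicate 2, 5 were lower. Of 10 genes of triglyceride synthesis Mogat1 was the 1 lower gene (55.4 and 21.1 against 12.7, 13.7 and 5.96 CPM, 13.8 CPM in WT CD replicate 3). This call was lost without any 1 HFD pool, without HoipA-KO CD replicate 1, HoipA-KO CD replicate 2 or HoipA-KO HFD replicate 3, and with WT CD replicate 3 added. With CD replicates 2 and 3 in place of 1 and 2, 3 genes of this list were higher and 1 lower. Of 17 lipases and lipid droplet proteins 2 were higher, near the 9.35% of all genes. These were Plin2, which coats lipid droplets in many cell types, at 359 and 259 CPM in the CD pools and 627, 1308 and 1523 CPM in the HFD pools, and Hilpda, an inhibitor of lipolysis, at 10.3 and 5.39 against 34.6, 28.2 and 25.9 CPM. The 2 calls became 0 without CD pool 2 and 1 without HFD pool 2 or HFD pool 3.

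For lists with 1 called member nothing is read from the count, since 9.35% of all genes were called higher and 5.47% lower. Cpt1a, which brings fatty acids into mitochondria, was the 1 called gene of 18 of fatty acid oxidation, higher at 94.7 and 53.9 CPM in the CD pools and 146, 187 and 212 CPM in the HFD pools. It was not called without CD pool 2, HFD pool 2, HFD pool 3, HoipA-KO CD replicate 1 or HoipA-KO HFD replicate 3, and without CD pool 1 there were 6 calls. Irs1, an adaptor of the insulin receptor, was the 1 called gene of 15 of insulin signaling and glucose uptake, lower at 57.2 and 28.7 against 20.6, 25.5 and 17.7 CPM, with 17.5 CPM in WT CD replicate 3, below all HFD pools. This call was lost without any 1 HFD pool, without HoipA-KO CD replicate 1 or with WT CD replicate 3 added. With CD replicates 2 and 3 in place of 1 and 2, 4 genes of this list were higher and 0 lower. The direction of its calls also depended on which CD pool was left out. Of 11 thermogenic genes only Otop1, a proton channel, was called, higher at 0.760 and 1.86 against 7.93, 14.6 and 11.6 CPM (log2 fold change 3.11 ± 0.42 (SE)). With DESeq2, 3 genes of this list were lower. Otop1 kept its call under each left-out library.

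The breakdown of branched-chain amino acids, a pathway that is active in adipocytes, had 5 of 18 genes lower and 0 higher, with a median of -0.63 and 0 genes with a higher estimate. Bcat2, the first enzyme of the pathway, was at 291 and 168 CPM in the CD pools and 101, 114 and 82.6 CPM in the HFD pools. Ivd, which acts on the leucine branch, was at 322 and 204 against 139, 133 and 90.3 CPM, Acadsb, of the isoleucine branch, at 243 and 219 against 142, 127 and 89.3 CPM. Aldh6a1, of the valine branch, was at 518 and 509 against 289, 254 and 189.9 CPM. The 2 CD pools were higher than all HFD pools. WT CD replicate 3 was not, with 94.4, 126, 101 and 205 CPM of these genes, and with it added 0 of the 18 were called. The count was 10 with TMM factors set without the flagged genes or with protein-coding genes alone, 3 without CD pool 1 or HFD pool 3, 9 without CD pool 2, 8 without HoipA-KO CD replicate 3 and 9 without HoipA-KO HFD replicate 1.

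Part of the respiratory chain was called lower on HFD against CD pools 1 and 2. Of 72 nuclear genes of its 5 complexes 34 were lower and 0 higher, with a median of -0.61, and 0 had a higher estimate. The log2 fold changes ran from -1.23 to -0.14, and 38 genes were not called. Complex I, the NADH dehydrogenase, had 21 of 37 genes lower, complex III 4 of 9, complex IV (cytochrome c oxidase) 6 of 10, complex V (ATP synthase) 3 of 12 and complex II 0 of 4. Ndufa5, a subunit of complex I, was at 83.0 and 73.5 CPM in the CD pools and 38.4, 39.2 and 31.4 CPM in the HFD pools, a log2 fold change of -1.11 ± 0.15 (SE). Ndufv2 was at 166 and 148 against 85.7, 93.0 and 78.1 CPM and Ndufa6 at 106 and 128 against 63.8, 67.0 and 61.0 CPM. Cox6c, of complex IV, was at 279 and 379.8 against 153, 164 and 126 CPM. In WT CD replicate 3 these 4 genes had 50.5, 139, 68.1 and 148 CPM. Those of the first 3 lay above all HFD pools and that of Cox6c among them.

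Of the 13 chain subunits encoded in mitochondrial DNA 5 were lower and 0 higher, with a median of -0.83, the largest fall being that of mt-Nd4l (753 and 679 against 386, 331 and 268 CPM). mt-Co2 was at 3490.4 and 2794 against 1600.2, 1789 and 1248 CPM and mt-Cytb at 17508 and 14964 against 8725, 8931 and 5445 CPM. Again WT CD replicate 3 did not share the level of the other CD pools, with 197, 1217 and 5192 CPM. Mitochondrial transcripts made up 8.85% and 9.15% of the counts of the CD pools, 6.11%, 5.91% and 4.28% of the HFD pools and 3.89% of WT CD replicate 3. For the 72 nuclear genes, the mean of log2(CPM + 1) was 7.45 and 7.18 in the CD pools, 6.72, 6.90 and 6.60 in the HFD pools and 6.50 in WT CD replicate 3, which lay above all HFD pools for 11 of the 72. With that library added, 6 were lower and the median was -0.37. Leaving out 1 WT library gave between 18 and 22 lower genes (21 without CD pool 1, 22 without CD pool 2, 18 without HFD pool 1, 20 without HFD pool 2 and 18 without HFD pool 3), and 52 were lower without HoipA-KO CD replicate 3. Of 20 genes of the TCA cycle and pyruvate entry Suclg2 (96.9 and 103 against 51.7, 50.3 and 44.9 CPM, 44.4 CPM in WT CD replicate 3) and Pdhb (227 and 174 against 128, 136 and 105 CPM, 142 CPM in WT CD replicate 3) were lower and 0 higher (median -0.40), and 0 of the 20 were called with WT CD replicate 3 added. The TCA count was 8 with TMM factors set without the flagged genes or with protein-coding genes alone, 1 without CD pool 1, 7 without CD pool 2 and 4 without HoipA-KO CD replicate 3 or HoipA-KO HFD replicate 1.

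**Figure D5:**
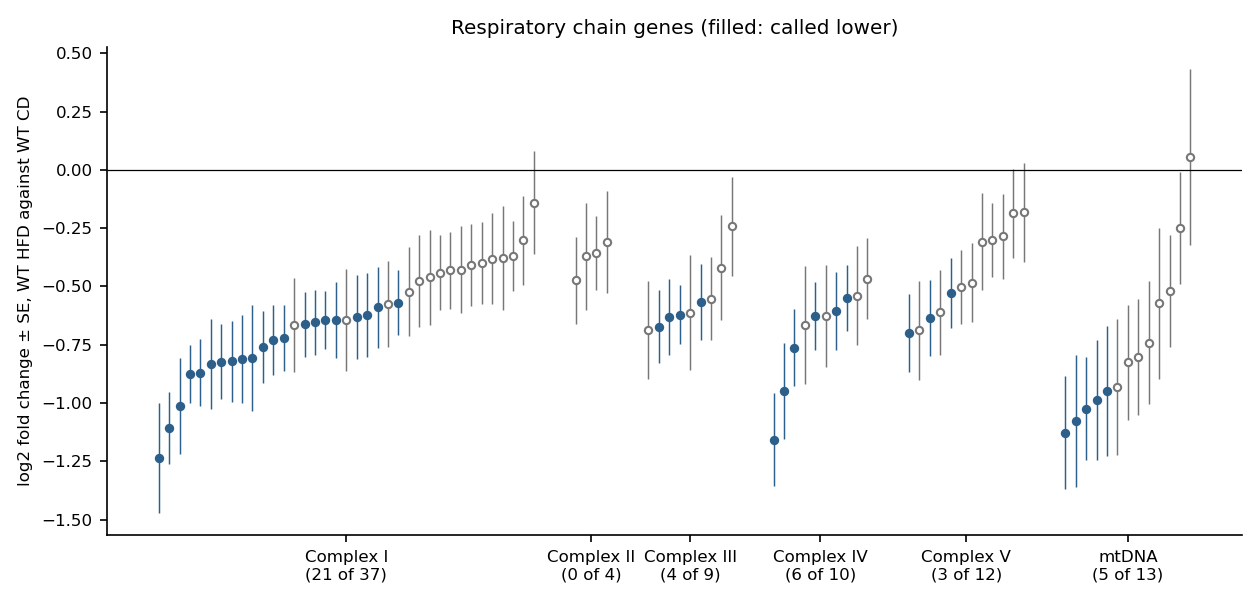
Log2 fold change of WT HFD against WT CD ± SE (y axis) of each respiratory chain gene, ordered by value within the 5 complexes and among the 13 subunits encoded in mitochondrial DNA (mtDNA). Filled points were called lower (their number and the number tested stand under each group), and all nuclear genes lie below 0.

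Among 9 steroid and xenobiotic enzymes 3 were lower and 1 higher (median -0.86). Besides Cyp2f2, Hsd11b1 and Aldh1a1 were lower. Hsd11b1, which makes active glucocorticoid in fat, was at 240.5 and 131 CPM in the CD pools and 81.9, 67.1 and 40.2 CPM in the HFD pools (76.9 CPM in WT CD replicate 3). Aldh1a1, which makes retinoic acid, was at 325 and 1161 against 254, 185 and 143 CPM (273 CPM in WT CD replicate 3). Both were above the HFD pools in 2 CD pools, and Aldh1a1 also in the third. Cyp1b1 was higher (35.8 and 32.7 against 52.1, 82.4 and 113 CPM). That rise was not called without any 1 of CD pool 1, CD pool 2, HFD pool 2, HFD pool 3, HoipA-KO CD replicate 1, HoipA-KO CD replicate 3 or HoipA-KO HFD replicate 3. The lower count was 1 without HFD pool 2 and 1 with WT CD replicate 3 added. Gdf3, a ligand of the ALK7 receptor that macrophages make, was the 1 called gene of 4 of that pathway, at 0 and 0.422 against 1.70, 3.48 and 12.2 CPM. It was lost without HFD pool 2 or HFD pool 3, and 2 were called without CD pool 1.

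The HFD pools were not alike in the markers of some cell types. Mast cell markers were higher on HFD in 6 of 8 genes (median 4.20), but mainly in pools 2 and 3. The mast cell proteases Mcpt4, Cma1 and Tpsb2 were at 2.10, 17.9 and 51.2, 2.88, 16.4 and 39.8 and 3.11, 19.8 and 48.3 CPM in the HFD pools, against 0.998 and 1.06, 1.69 and 1.16 and 2.11 and 1.16 CPM in the CD pools. HFD pool 1 thus lay near the CD level for each of them. None of the 8 genes was called without CD pool 2, HFD pool 2 or HFD pool 3, and there were 2 calls without CD pool 1 and 3 without HoipA-KO CD replicate 1 or HoipA-KO HFD replicate 3. B cell and plasma cell markers ran the other way, with means of log2(CPM + 1) of 4.03, 2.43 and 1.76 in HFD pools 1 to 3 and 2.31 and 3.26 in the CD pools. The immunoglobulin heavy chain Ighm was at 634 and 277 CPM in the CD pools and 1272, 701 and 358 CPM in the HFD pools, and 0 of the 8 genes were called. Lymphatic endothelial markers had means of 4.83, 4.68 and 2.47 in the HFD pools and 2.82 and 3.93 in the CD pools, and Ccl21a, a chemokine of lymphatic vessels, was at 105, 97.5 and 1.63 CPM on HFD and 7.20 and 74.3 CPM on CD. Mesothelial markers were lowest in HFD pool 3 among the HFD pools as well, with means of 4.15, 4.48 and 2.73, and 0 of 8 were called, including Upk3b (52.1 and 18.9 against 66.3, 77.7 and 16.6 CPM).

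Other cell types gave few or no calls. Of 12 T cell markers, 6 NK cell markers and 12 endothelial markers 0 were higher or lower, with median log2 fold changes of 0.66, 0.57 and 0.08. The endothelial cadherin Cdh5 was at 343 and 162 CPM in the CD pools and 314, 266 and 281 CPM in the HFD pools. The T cell gene Il2ra was at 4.01 and 2.01 against 6.88, 5.19 and 6.16 CPM and the NK receptor Klrk1 at 1.66 and 1.42 against 3.34, 2.41 and 3.30 CPM. Neither of the last 2 passed the test. Their HFD pools lay above both CD pools, as they did for 24.6% of all genes. Pdgfrb was the 1 called gene of 9 of pericytes and smooth muscle, close to the background of 9.35% (61.7 and 29.2 against 103, 103 and 133 CPM), a call lost without HFD pool 3, while 2 were called without CD pool 1.

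The genes called higher also differed among the HFD pools. Of 1154 protein-coding genes called higher with at least 10 CPM in an HFD pool, HFD pool 3 was highest for 920 and HFD pool 1 lowest for 939, and 849 had the order pool 1, pool 2, pool 3. Among all 9929 protein-coding genes at this level, called or not, these were 41.8%, 43.8% and 32.3%, against 79.7%, 81.4% and 73.6% of the genes called higher. Of the 9929 genes, 69 were over 4-fold higher in HFD pool 3 than in HFD pool 1, of which 56 were called higher, and 20 were over 4-fold lower, of which only Trdn was called. Ccl21a had the largest fall from pool 1 to pool 3, by 5.92 on the log2 scale, and the mast cell protease Cpa3 was at 0.885, 13.7 and 43.3 CPM in the HFD pools. The labels give no batch, extraction day or cohort for a pool, so such differences cannot be set against one.

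The diet effect was compared with that of HoipA-KO tissue in the same fit. It differed between the genotypes for 721 genes, or 3.91% of those tested (interaction term in edgeR, adjusted p below 0.05), and in 660 of these the change on HFD was lower in HoipA-KO than in WT. Of the 10 largest rises named above, 9 had a change on HFD that was lower in HoipA-KO by this test, which is favored by choosing genes for their change in WT, such as Gpnmb (difference -6.01 ± 1.05 (SE) on the log2 scale) and Il1rn (-5.63 ± 0.90 (SE)); for Tph2 the difference was -4.12 ± 1.14 (SE) and did not pass. The estimates of these 9 genes in HoipA-KO tissue ran from -0.57 (Gpnmb) to 1.02 (Myh15) on the log2 scale. In HoipA-KO tissue itself 0 genes were called between HFD and CD with edgeR (415 at an unadjusted p below 0.05) and 7 with DESeq2. The interaction count was 377 with the replicate number as a block, 3668 without CD pool 1, 226 without HFD pool 3, 1 without CD pool 2 or HoipA-KO HFD replicate 3, 2 without HoipA-KO CD replicate 1 or HoipA-KO CD replicate 2, 3 without HoipA-KO HFD replicate 1, and 4 without HFD pool 2 or HoipA-KO CD replicate 3.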

How the data were processed

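Bulk RNA-seq of GWAT was analysed from the estimated counts per gene that the authors deposited for all 55281 annotated mouse genes, made by them with Trim Galore 0.6.7, STAR 2.7.10a and Salmon 1.5.2 and not normalized. The authors' table of protein-coding genes (21646) served only to mark such genes. The labels name GRCm38, the methods a human assembly, and the identifiers are of mouse genes. The authors' DESeq2 tables (fold changes, p-values and normalized values of their own comparisons) were not used. The number of columns without a sample was 0. The study's own comparisons leave out WT CD replicate 3, and the methods name no reason for this library.

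Counts were rounded, filtered with filterByExpr (18427 genes), scaled by TMM and fitted in 11 libraries as 4 group means and tested by the quasi-likelihood method of edgeR, with calls at a Benjamini-Hochberg p below 0.05 over all genes tested. Log2 fold changes use a prior count of 0.125. Each SE of these fits was derived from the test, as the absolute log2 fold change divided by the square root of the quasi-likelihood F statistic. CPM are normalized by TMM, WT CD replicate 3 being set on the same scale through a fit of all 12 libraries. A gene was flagged when its CPM differed over 8-fold between WT CD replicates 1 and 2, each set to at least 3 counts, and these floors cover counting error only. The 63 gene lists came from general knowledge, and the members and lists were chosen with earlier results of these data known. Lists are given by counts and medians, with no test.

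Genes named are the 10 largest rises and 10 largest falls among protein-coding genes called, not flagged, at 10 CPM or more in the higher group and without overlap, up to 4 genes of smallest p per list or the most abundant one where none was called, 2 per list of other tissues, and Rnf31; some genes of this rule are not reported here. Others, such as Mrc2, Dock8, Ubd, Lep, Gsdmd and the collagens of type VI, were named after their values were seen. The test was tried on simulated counts with 200 changed genes. Promoters came from RefSeq for GRCm38.p6. Alternatives were other scalings and filters, other CD libraries, a replicate block, DESeq2, stricter thresholds and leaving out each library. Versions were 4.0.16 of edgeR, 3.58.1 of limma and 1.42.0 of DESeq2, under R 4.3.3.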

Additional observations from a re-analysis of the deposited data

Results flagged for a closer look

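For 12 of the 20 genes with the largest rises and falls, the diet effect in HoipA-KO tissue differed from that in WT tissue by a test of the difference itself (interaction term in edgeR, adjusted p below 0.05). The difference, HoipA-KO minus WT on the log2 scale, was -5.65 for Myh15, -6.12 for Itgad, -7.03 for Tm4sf19, -6.15 for Hmga2, -5.21 for Trdn, -5.63 for Il1rn, -6.01 for Gpnmb, -5.68 for Dhrs9 and -5.34 for Adam8, all of which rose on HFD in WT. It was 3.85 for Gpx3, 3.55 for Slc25a29 and 3.21 for Slc2a3, which fell in WT. Each of these falls had its higher CD value in CD pool 2, and WT CD replicate 3 had 380, 3.97 and 633 CPM. The part of RNA from other tissues in them was not tested. All 12 genes were named for their large change in WT, a value that is part of the difference. Those of Myh15, Tm4sf19 and Hmga2 rest on very few counts, with CD pool 1 under the floor of 3 counts. Of the 12 differences 0 passed the test without any 1 of CD pool 2, HFD pool 2, HoipA-KO CD replicates 1 to 3 or HoipA-KO HFD replicates 1 and 3, and 5 passed without HFD pool 3 or with WT CD replicate 3 added.

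In WT CD replicate 3, a library outside the comparison, 6.34% of the counts lay in genes over 8-fold apart between the other CD pools, and Prm1 stood at 1256 CPM, above 4.42 and 28.1 CPM in the other CD pools.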

How the results depend on the processing

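Against 1723 higher and 1008 lower genes (2731 in all) and 721 with a different diet effect in HoipA-KO, other scalings, filters and protein-coding genes alone kept each of these counts within 1.5 times. With WT CD replicates 2 and 3 there were 7046 calls (3338 higher, 3708 lower) and 3550 differences, and with replicates 1 and 3, 1666 lower genes and 326 differences. DESeq2 gave 4551 calls, 2155 lower genes and 2374 differences. The 5 WT libraries alone gave 0 calls with edgeR, 0 higher and 0 lower, while 2 fits added after the data were seen gave 1636 lower genes (DESeq2) and, without the flagged genes, 11 calls, 11 higher and 0 lower; fewer samples set the spread in these fits. At an adjusted p below 0.01 there were 660 calls, 603 higher, 57 lower and 2 differences. Leaving out 1 library gave 1045 to 5985 calls, 750 to 2913 higher, 155 to 3072 lower and 1 to 3668 differences.

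Whether the replicate numbers pair the WT libraries was not settled, since with 2 CD libraries their deviations from the group mean mirror each other. Deviations correlated at 0.12 for replicate 1 and 0.02 for replicate 2 of WT CD and WT HFD. Between HoipA-KO CD and HFD they correlated at 0.26, 0.54 and 0.35, each library best with its own number, and same-numbered libraries of different genotypes at -0.31 to 0.45. With a replicate block there were 1502 calls, 1195 higher and 307 lower, and 377 differences; mast cell calls fell to 0, sperm and testis calls to 2, lysosome calls to 7 and those of cytokines and of metalloproteases and inhibitors to 3, while adipose expansion rose to 4 and adipokines to 3 higher. Calls also fell, by 1 or 2 genes, for lipases, the TCA cycle, monocytes, interferon and iron, and to 0 for insulin signaling, fatty acid oxidation, NRF2, ER stress (lower), steroid enzymes (higher), epididymis, epithelium, seminal vesicle and pancreas.

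The sign turned for Rnf31 with WT CD replicate 3 added (0.054) or with CD replicates 2 and 3 (0.19) or 1 and 3 (0.18), for Egr3 under the same settings (-0.78, -1.21 and -1.30), and for Fabp4 with replicate 3 added (0.033) or with replicates 2 and 3 (0.76). For Adipoq it turned with CD replicates 2 and 3 (0.50). With CD replicates 1 and 3 it turned for Upk3b (-0.037), Crisp1 (0.24), Nqo1 (0.013) and Psat1 (0.22). With 1 library left out the log2 fold change ran from -0.78 to 0.43 for Fabp4, -0.71 to 0.25 for Adipoq and -0.12 to 3.24 for Ccl21a, the sign turning without CD pool 1. It ran from -0.26 to 0.83 for Cdh5, -14.46 to 1.18 for Adam7, -16.23 to 1.15 for Crisp1, -5.62 to 0.73 for Krt8 and -6.06 to 0.75 for Krt18, turning without CD pool 2. The cause of these reversals was not tested. The counts of named genes that follow do not cover Col16a1, Kif21b and Cpa3. Of 168 called genes named above, 137 kept their call with WT CD replicate 3 added, 138 with CD replicates 2 and 3, 128 with 1 and 3, 124 with the block, 0 with edgeR on the WT libraries alone and 94 to 164 with 1 library left out, the fewest without CD pool 2; DESeq2 kept all 167 for which it gave an adjusted p.

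With 2 pools on CD, a fall that rests on CD pools 1 and 2 and is not shared by the third, as for most of the respiratory chain, lipogenesis and branched-chain amino acid genes, cannot be told from a difference between CD pools. Values below 0.0983 CPM can rest on fewer than 3 counts, and the size of a fold against them is uncertain.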

Other observations

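In gene groups outside the comparisons above a few members were called on HFD (adjusted p below 0.05 in edgeR). Over all genes tested 9.35% were higher and 5.47% lower. Several counts below, such as those of genes called higher for glycolysis, NRF2, ER stress and interferon, are near the first of these shares. Of 16 genes of cholesterol synthesis 3 were higher and 1 lower, the median log2 fold change being 0.39. Hmgcs1, which makes HMG-CoA, was at 113 and 104 CPM in the CD pools and 355, 396 and 298 CPM in the HFD pools, Dhcr7, the last enzyme of the pathway, at 16.2 and 15.3 against 36.4, 57.9 and 42.2 CPM, and Insig1, which holds back the sterol-sensing factors, at 219 and 203 against 517, 432 and 356 CPM. Fdft1 (squalene synthase) ran against them at 91.6 and 94.9 against 49.6, 36.8 and 35.6 CPM, with 283 CPM in WT CD replicate 3. The count was 5 higher and 2 lower without CD pool 1. Of 11 genes of iron handling Slc11a1, an iron exporter of phagosomes, was higher (12.4 and 7.98 against 38.3, 73.3 and 141 CPM), as was the biliverdin reductase Blvra (45.3 and 26.1 against 60.7, 70.3 and 77.4 CPM), and Cp (ceruloplasmin) was lower (197 and 295 against 115, 100.0 and 78.0 CPM, 93.6 CPM in WT CD replicate 3). Without CD pool 2 none was called, 1 was higher without HFD pool 2, HFD pool 3, HoipA-KO CD replicate 1 or HoipA-KO HFD replicate 3, and 2 genes were lower without CD pool 1. Hmox1, which breaks down heme, was the 1 higher gene of 10 targets of NRF2 (36.7 and 21.5 against 75.8, 147 and 151 CPM) and was not called without CD pool 2, HFD pool 2 or HFD pool 3. The 1 lower gene of that list, the quinone reductase Nqo1, was at 8.46 and 65.0 against 7.27, 5.83 and 5.03 CPM with 3.51 CPM in WT CD replicate 3, and that list had 2 lower genes without CD pool 1 and 0 without CD pool 2, any 1 HFD pool or HoipA-KO CD replicate 1.

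Of 12 genes of ER stress and the integrated stress response Atf3, a stress-induced transcription factor, was higher (8.55 and 5.64 against 38.1, 86.4 and 172 CPM), and 4 were without CD pool 1. The 2 lower genes were Asns (89.1 and 51.4 against 36.1, 43.1 and 25.8 CPM) and Psat1 (218 and 374 against 185, 186 and 154 CPM, but 83.5 CPM in WT CD replicate 3), of asparagine and serine synthesis, and they numbered 0 or 1 without any 1 library other than CD pool 1, HoipA-KO CD replicate 3 or HoipA-KO HFD replicate 1. Of 19 gene identifiers of glycolysis and hypoxia 2 were higher, the carbonic anhydrase Car9 (0.0713 and 0.253 against 1.08, 2.13 and 3.63 CPM) and the phosphofructokinase Pfkp (71.0 and 42.1 against 104, 110.2 and 103 CPM), with 128 CPM of Pfkp in WT CD replicate 3. They were 6 without CD pool 1 and 1 without CD pool 2, any 1 HFD pool or HoipA-KO CD replicate 1. Of 14 interferon-stimulated genes Oas1a (3.18 and 3.17 against 7.44, 13.9 and 24.3 CPM) and Oasl2 (12.4 and 11.8 against 19.3, 21.4 and 30.3 CPM) were higher, 4 without CD pool 1, 0 without CD pool 2 and 1 without HFD pool 2 or HFD pool 3. Of 14 immediate early genes, which answer tissue handling within minutes, Junb (19.9 and 15.0 against 29.4, 41.2 and 44.1 CPM), Fos (33.5 and 15.0 against 54.1, 62.9 and 80.8 CPM) and Egr3 (1.16 and 0.549 against 2.16, 3.01 and 3.81 CPM, but 13.8 CPM in WT CD replicate 3) were higher, 8 without CD pool 1, 1 without CD pool 2 or HFD pool 2 and 0 without HFD pool 3. Of 10 genes of p53 and senescence Ccng1 was higher beside Cdkn1a and Cdkn2a (174 and 145 against 254, 253 and 291 CPM), and 5 were higher without CD pool 1. Of 16 circadian genes 0 were called, with a median of -0.40.

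Of the lists of other tissues, the sperm and testis genes, all 7 called lower, are described above. Of 11 genes of the epididymis tested 1 was lower and 5 were flagged, of 3 of the seminal vesicle 1 was lower and 2 were flagged, and of 8 epithelial genes 2 were lower. Without any 1 HFD pool these numbers of lower genes were 0 for all 3 lists. The epithelial number was also 0 without any single HoipA-KO CD library or HoipA-KO HFD replicate 3, and 5 without HoipA-KO HFD replicate 1. The epididymal number was 0 without HoipA-KO CD replicate 1 or HoipA-KO HFD replicate 3. Of 6 skeletal muscle and 6 liver genes 0 were called, and the 1 pancreas gene tested, Cela1, was higher by 1.08 on the log2 scale, a call lost without CD pool 2, any 1 HFD pool or HoipA-KO HFD replicate 3.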
